A study of Mus musculus with 21 samples.

Results

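The MYC network is a small family of transcription factors that meet at the same DNA sites. Its members here were the 10 mouse genes Myc, Max, Mxd1, Mxd3, Mxd4, Mnt, Mxi1, Mga, Mlx and Tfap4, chosen by name, and each was matched to its Ensembl identifier among the 47729 gene identifiers counted in every mRNA library. All 10 were present and all 10 passed the filter on low counts, which left 15789 genes for testing. They were followed over germinal centre B cells of the light zone (LZ) and the dark zone (DZ), with and without PTBP1, an RNA-binding protein that controls splicing and mRNA stability.

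MYC drives growth and cell division, and it binds DNA only as a pair with MAX. The MXD proteins (MXD1, MXD3, MXD4 and MXI1), MNT and MGA also pair with MAX and repress genes through the same sites, called E-boxes, so the network is often described as a balance between MYC and its antagonists. MLX pairs with MondoA and ChREBP and with some of the repressors, and TFAP4 (AP4) is a MYC-induced factor that sustains the division of activated B cells. In germinal centres MYC is known for marking light zone cells that have been positively selected with T cell help and are about to return to the dark zone, where B cells divide and mutate their antibody genes.

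Mice with the genotype CD79a+/+Ptbp1fl/fl were the controls and CD79acre/+Ptbp1fl/fl mice were the conditional knockouts (cKO), all of the C57BL/6 strain and carrying Ptbp1 alleles flanked by loxP sites. Cre was expressed from the Cd79a gene, which is active in the B lineage from early development. Since only the cKO mice carried Cre in a Cd79a allele, its effect and that of PTBP1 loss cannot be told apart. Spleens were taken 7 days after immunisation with NP-KLH in alum, and germinal centre B cells of 3 to 5 mice of 1 genotype and 1 sex were pooled before sorting. Both zones came from the same pool, and a control pool and a cKO pool were sorted on each of 4 days, with males on sort days 1 and 2 and females on sort days 3 and 4. This gave 4 groups of 4 libraries: LZ control, LZ cKO, DZ control and DZ cKO. RNA crosslinked to PTBP1 (iCLIP) was mapped separately, in 5 replicates of splenic B cells of female mice cultured with lipopolysaccharide (LPS) for 48 hours. These were not germinal centre cells, and no control immunoprecipitation was analysed here.

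The network's recognition word occurs in the listed promoter windows of some of its own genes. The canonical E-box is CACGTG, which reads the same on both strands and was searched in RefSeq's promoter windows (GRCm38.p6), from 250 bases before to 50 bases after a listed start. The promoter table held 8 of the 10 members (all but Myc and Tfap4), and 4 of these 8, Max, Mlx, Mnt and Mxd4, held a CACGTG. Over all genes with such windows, 8.09% of 27025 held it. The listed start is not always the 5′ end of the RefSeq gene span used for the crosslinks: it matched that end for Mxd4 and lay 75 bases inside the span for Max, 118 for Mnt, 583 for Mlx and 24725 for Mga. The 4 stretches are shown 5′ to 3′ on the gene's strand, with the E-box in capitals, because they place the network's own recognition word next to network genes.
Max, chr12:76962234-76962263, minus strand, E-box starting 3 bases before the listed start and 72 bases inside the gene span: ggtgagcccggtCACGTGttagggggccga
Mlx, chr11:101087238-101087267, plus strand, 40 bases before the listed start and 543 bases inside the span: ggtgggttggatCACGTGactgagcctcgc
Mnt, chr11:74830789-74830818, plus strand, 123 bases before the listed start, at the 5′ end of the span: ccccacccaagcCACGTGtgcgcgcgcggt
Mxd4, chr5:34187912-34187941, minus strand, 219 bases before the listed start and outside the span: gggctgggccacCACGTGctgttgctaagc
The word CAGCTG, also the same on both strands and the type bound by TFAP4, was in 1 of the 8 members (Mga), against 18.3% of all genes. These matches describe letters in a window and do not show binding.

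The libraries held between 26823882 and 34240096 reads counted in genes, so counting error is small for every member except Tfap4, which had 42 to 201 counts in a library. Values are CPM, the gene's reads relative to the library's total, with edgeR's TMM scaling. They compare libraries for 1 gene, not genes with each other, since no transcript lengths were used. Ptbp1 was at 353 to 420 CPM in LZ control and 82.5 to 121 in LZ cKO libraries, and at 416 to 486 in DZ control and 92.1 to 114 in DZ cKO. Its paralog Ptbp2 was at 8.60 to 16.8 CPM in LZ control and 126 to 186 in LZ cKO, and at 14.1 to 19.3 and 181.5 to 290.4 in the dark zone, so all 16 libraries matched their genotype labels. The summed level of 6 light zone markers (Cd83, Cd86 and others) was 2019 to 2486 CPM in light zone libraries and 540.4 to 760.1 in dark zone libraries, also as labelled, although Il4i1 was at 0 in at least 1 library of 3 groups. The germinal centre marker Mef2b was at 0 to 0.125 CPM throughout. Other cells left a trace that varied: 10 macrophage genes summed to 24.8 to 398 CPM in LZ control, 78.5 to 493 in LZ cKO, 14.9 to 406 in DZ control and 44.2 to 1231 in DZ cKO, highest on sort day 2 in every group, with up to 6 of the 10 at 0 in a DZ control library.

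Myc mRNA was higher in the light zone than in the dark zone in both genotypes. In LZ control libraries Myc (ENSMUSG00000022346) was at 132, 136, 145 and 114 CPM on sort days 1 to 4, and in DZ control libraries at 54.3, 61.4, 60.2 and 48.7 CPM. Every light zone library lay above every dark zone library. Myc was 2.35-fold higher in the light zone (log2 difference 1.23 ± 0.159 SE, 95% interval 0.89 to 1.57, edgeR quasi-likelihood adjusted p = 0.000183). In LZ cKO libraries it was at 116, 134, 165 and 102 CPM, and in DZ cKO at 79.7, 67.3, 77.2 and 49.5 CPM, again without overlap. The cKO light zone level was 1.89-fold that of the dark zone (log2 difference 0.92 ± 0.158, 0.58 to 1.25, edgeR adjusted p = 0.00172). In bulk libraries fewer Myc-positive cells and less Myc RNA per cell cannot be told apart.

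Loss of PTBP1 was not accompanied by a detected change of Myc mRNA in either zone. The light zone means were 132 ± 12.9 CPM in control and 129 ± 27.1 in cKO (SD, n = 4), and the ranges overlapped. The log2 difference was -0.03, and its 95% interval ran from -0.36 to 0.30 (edgeR adjusted p = 0.97). The dark zone means were 56.2 ± 5.81 and 68.4 ± 13.7 CPM (SD, n = 4). Myc was higher in the cKO pool on 4 of 4 sort days there, but by 0.29 on the log2 scale with an interval of -0.05 to 0.62 (edgeR adjusted p = 0.539).

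Taken pool by pool, the step in Myc between the zones was smaller in every cKO pool than in any control pool. The log2 difference of light over dark zone within a pool was 1.15 to 1.28 in the 4 control pools and 0.55 to 1.09 in the 4 cKO pools. Myc was the 1 member of 10 whose pool differences did not overlap between genotypes, against 4.07% of all genes tested. The interaction of zone and genotype was tested in the main fit, which did not pair the zones of a pool. It gave -0.31 ± 0.221 for Myc (95% interval -0.78 to 0.16) with an edgeR adjusted p of 1. This SE and interval therefore do not measure the spread of the pool differences. No member was called for this interaction. Over all genes 0.0% were called by edgeR (0 of 15789, with 466 at an unadjusted p under 0.05 and none of the members among them) and DESeq2 called 6, none of them a member. A replicate block by mouse pool, which pairs the zones, also gave 0 of 15789 genes called by edgeR for the interaction.

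**Figure D1:**
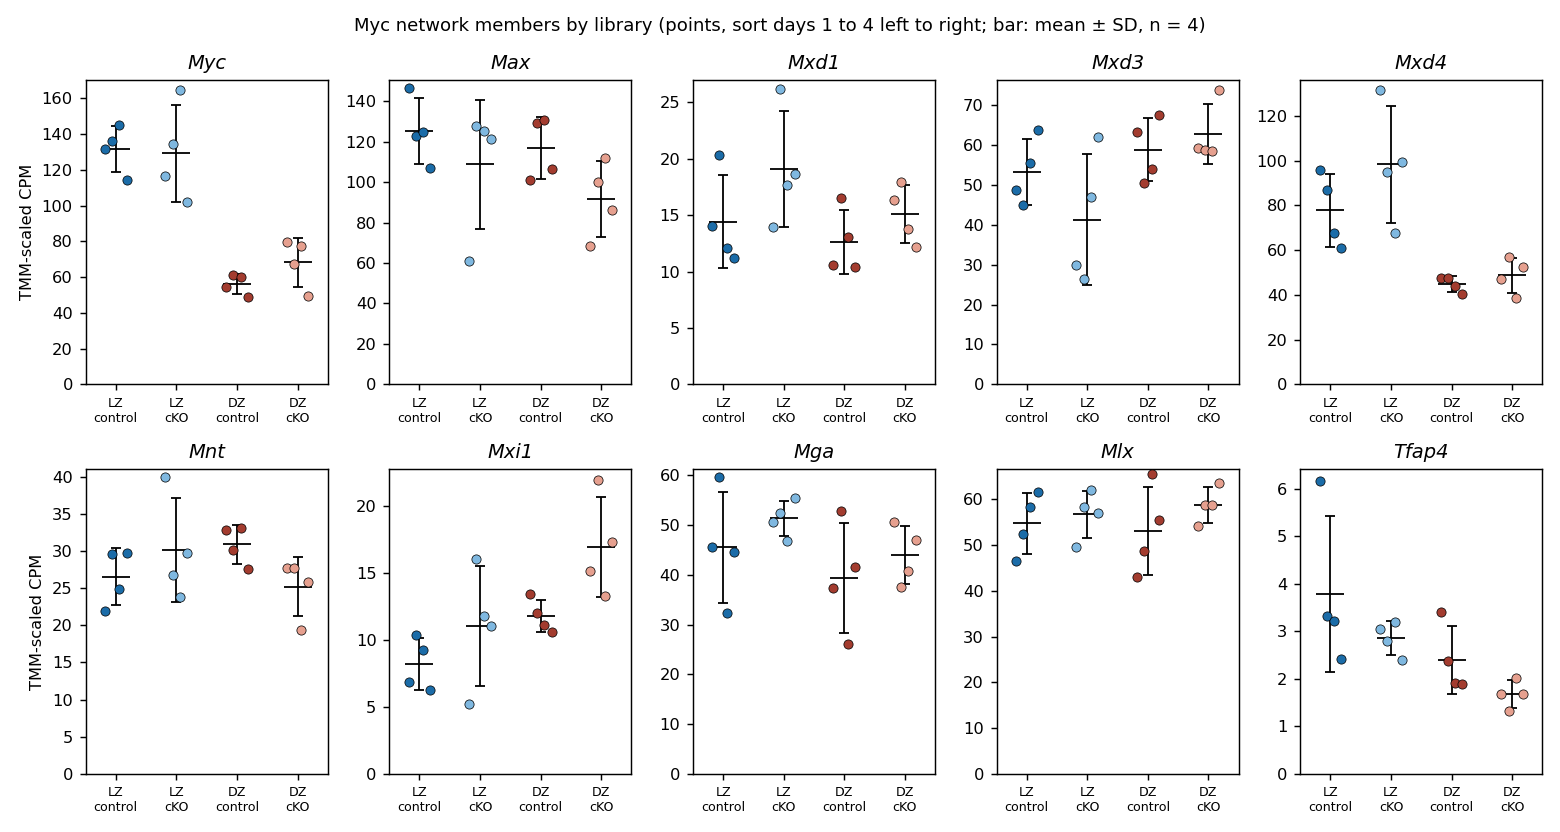
TMM-scaled CPM of the 10 members in each of the 16 libraries (vertical axis, from 0, its own scale for each gene), by group (horizontal axis), with points for sort days 1 to 4 from left to right and bars for mean ± SD (n = 4). Myc and Mxd4 stand higher in both light zone groups, at 101.8 to 165 CPM and 60.8 to 131.5 CPM, than in the dark zone groups, at 48.7 to 79.7 CPM and 38.5 to 57.0 CPM.

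Max, the shared partner of the network, showed no zone or genotype difference that passed the test. Max (ENSMUSG00000059436) was at 146, 123, 125 and 107 CPM in LZ control and 61.2, 128, 125 and 121 in LZ cKO libraries. DZ control libraries had 101.3, 129.5, 131 and 107 CPM and DZ cKO libraries 68.3, 100.0, 112 and 86.2. The male pool of sort day 1 was the lowest cKO library in both zones, and the groups overlapped in all comparisons. The dark zone level was lower in cKO on 4 of 4 days, by a log2 difference of -0.35 with a 95% interval of -0.78 to 0.08 (edgeR adjusted p = 0.562). In the light zone the difference was -0.20 (-0.63 to 0.23, adjusted p = 0.757), and 3 of 4 days pointed the other way.

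Among the antagonists, Mxd4 rose in the light zone together with Myc. MXD4 is a MAX partner of the repressor class linked to cells that stop dividing. Mxd4 (ENSMUSG00000037235) was at 95.8, 86.7, 67.7 and 60.8 CPM in LZ control against 47.5, 47.8, 43.9 and 40.5 in DZ control. It was at 131.5, 95.1, 67.5 and 99.3 CPM in LZ cKO against 47.0, 57.0, 38.5 and 52.5 in DZ cKO. The zones did not overlap in either genotype. Mxd4 was 1.73-fold higher in the control light zone (log2 difference 0.79 ± 0.185, edgeR adjusted p = 0.0144) and 2.02-fold higher in the cKO light zone (1.01 ± 0.185, edgeR adjusted p = 0.0027). The control call was lost without LZ control replicate 1 (0.67, adjusted p = 0.0564) and without sort days 1, 2 or 4 (0.70, 0.76 and 0.85, adjusted p = 0.059, 0.101 and 0.0675). Between genotypes Mxd4 did not pass the test, at a log2 difference of 0.34 (-0.05 to 0.73) in the light zone and 0.12 (-0.27 to 0.51) in the dark zone (edgeR adjusted p = 0.455 and 0.887).

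In all, 2 of the 10 members, Myc and Mxd4, were called higher in the light zone of control mice and the same 2 in the light zone of cKO mice, and none was called lower. The share of all genes called was 7.49% in control (4.16% higher) and 9.09% in cKO (4.91% higher). The zones were free of overlap for 3 members in control (Myc, Mxd4 and Mxi1) and 3 in cKO (Myc, Mxd4 and Tfap4), against 14.3% of all genes in control and 14.3% in cKO. The T cell marker sum was higher in the light zone. In control 7 genes summed to 268.5 to 442 CPM in the light zone against 114 to 219 in the dark zone. In cKO they summed to 154 to 397 against 88.8 to 204 CPM, with overlap. Most of the LZ control sum was Lck (205.8 to 265 CPM), Cd3e was at 10.5 to 45.2 CPM there and Cd4 was at 0 in at least 1 library. In each genotype 6 of the 7 were higher in the light zone, 1 was lower and 1 was called. In cKO the called gene was Lck and the lower one Cd4 (log2 difference -0.82). The plasma cell sum moved the other way: 6 genes summed to 1233 to 1992 CPM in LZ control against 2594 to 7581 in DZ control, and 1151 to 2125 against 2279 to 10680 in cKO, most of it Jchain. In control 5 of the 6 were lower in the light zone and 0 were called. Irf4 went the other way there, at 30.8 to 51.0 CPM against 9.14 to 32.8. In cKO all 6 were lower and 1, Jchain, was called. The part of T cell and plasma cell RNA in the zone differences was not tested.

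Mxd3, another MXD repressor and the one described in dividing cells, had values in the opposite direction to Mxd4 between the zones of the knockout. Mxd3 (ENSMUSG00000021485) was at 48.7, 45.0, 55.5 and 63.8 CPM in LZ control and 63.2, 50.6, 53.9 and 67.5 in DZ control, with overlap. In LZ cKO it was at 29.9, 26.4, 46.9 and 62.0 CPM, and in DZ cKO at 59.3, 58.8, 58.5 and 73.9. The 2 male LZ cKO libraries were the lowest of all 16. The light zone level was below that of the dark zone in 4 of 4 cKO pools, by a log2 difference of -0.60 ± 0.216 that missed the threshold (edgeR adjusted p = 0.099). With a replicate block for the mouse pool, which uses that both zones came from the same mice, the difference was -0.68 and passed (edgeR adjusted p = 0.0121), and in DESeq2 it was -0.60 (adjusted p = 0.0412).

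The same 2 libraries were also low in dark zone markers. The summed level of 6 such genes, mostly of mitosis, was 779.7, 623.5, 1149 and 1211 CPM in the LZ cKO libraries of sort days 1 to 4. It was 910.9 to 1252 CPM in LZ control and 1743 to 2180 in the dark zone groups. How far cell division moves with Mxd3 was not tested. Within the males alone the cKO zone difference of Mxd3 was -1.06 (edgeR adjusted p = 0.0198), and within the females alone -0.28 (adjusted p = 0.537). Between genotypes in the light zone Mxd3 was lower in cKO on 4 of 4 days, by -0.37 (95% interval -0.82 to 0.09, edgeR adjusted p = 0.508).

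Mxi1 was the other antagonist with lower values in the light zone. Mxi1 (ENSMUSG00000025025), which also represses through MAX, was at 6.85, 10.4, 9.27 and 6.25 CPM in LZ control and 13.4, 12.04, 11.1 and 10.6 in DZ control. The groups did not overlap, but the log2 difference of -0.53 ± 0.272 missed the threshold (edgeR adjusted p = 0.304). In cKO mice it was at 5.18, 16.1, 11.8 and 11.04 CPM in the light zone and 15.2, 21.9, 13.3 and 17.3 in the dark zone, a log2 difference of -0.62 ± 0.271 (adjusted p = 0.182). All 8 pools had less Mxi1 in the light zone. In the dark zone Mxi1 was higher in cKO on 4 of 4 days, by 0.52 (95% interval -0.06 to 1.10, edgeR adjusted p = 0.505).

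Mxd1, the MXD protein induced in differentiating cells, did not pass any test. Mxd1 (ENSMUSG00000001156) was at 14.0, 20.3, 12.1 and 11.2 CPM in LZ control and 14.0, 26.2, 17.7 and 18.6 in LZ cKO. Its dark zone values were 10.6, 16.5, 13.1 and 10.4 CPM in control and 16.4, 17.9, 13.8 and 12.2 in cKO. The highest library of each group came from sort day 2, as were the macrophage gene sums, whose part was not tested, and all groups overlapped. The log2 difference between genotypes was 0.41 in the light zone (-0.08 to 0.89) and 0.25 in the dark zone (-0.23 to 0.74), with edgeR adjusted p of 0.475 and 0.762.

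Mnt, a repressor present in resting and dividing cells alike, ranged over 19.4 to 40.03 CPM. Mnt (ENSMUSG00000000282) was at 22.0, 29.6, 24.9 and 29.8 CPM in LZ control, 40.03, 26.8, 23.9 and 29.8 in LZ cKO, 32.9, 30.1, 33.1 and 27.6 in DZ control and 27.8, 27.7, 19.4 and 25.9 in DZ cKO. It was lower in the cKO dark zone on 4 of 4 days, by -0.29 (95% interval -0.64 to 0.05), and differed by 0.18 (-0.16 to 0.53) in the light zone (edgeR adjusted p = 0.539 and 0.72). By sort day Mnt differed in the light zone by 0.864, -0.144, -0.06 and 0.003. Its interaction of zone and genotype was 0.48 ± 0.229 with an interval of -0.01 to 0.96, the member with the smallest unadjusted p there (0.0552, edgeR adjusted p = 1). The groups overlapped in each comparison.

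Mga and Mlx did not pass any test. MGA is a very large MAX partner that works in a Polycomb complex, PRC1.6. Mga (ENSMUSG00000033943) was at 45.7, 59.6, 32.3 and 44.6 CPM in LZ control, 50.7, 52.5, 46.8 and 55.4 in LZ cKO, 37.3, 52.8, 26.04 and 41.7 in DZ control and 50.6, 37.6, 40.8 and 47.0 in DZ cKO. It was higher in the light zone in 8 of 8 pools, but only by log2 differences of 0.21 and 0.22, which did not pass (edgeR adjusted p = 0.638 and 0.555). Mlx (ENSMUSG00000017801) was at 46.6, 52.5, 58.4 and 61.7 CPM in LZ control, 49.7, 58.2, 61.9 and 56.9 in LZ cKO, 43.0, 48.6, 65.5 and 55.4 in DZ control and 54.1, 58.7, 58.7 and 63.6 in DZ cKO. Its 95% intervals were the narrowest of the members: -0.22 to 0.31 between genotypes in the light zone and -0.12 to 0.41 in the dark zone.

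Tfap4 had the same direction as Myc between the zones, at a far lower count, but did not pass the test. Tfap4 (ENSMUSG00000005718) was at 6.18, 3.32, 3.22 and 2.41 CPM in LZ control and 3.41, 2.37, 1.91 and 1.89 in DZ control. In cKO it was at 3.04, 2.79, 3.20 and 2.40 CPM in the light zone and 1.68, 1.33, 2.03 and 1.68 in the dark zone. Light zone values were above dark zone values in 8 of 8 pools, and in cKO the zones did not overlap. The log2 differences were 0.66 ± 0.303 in control and 0.77 ± 0.306 in cKO, and neither passed (edgeR adjusted p = 0.238 and 0.138). With the replicate block for the mouse pool the cKO difference was 0.77 and passed (adjusted p = 0.0481). Between genotypes the values were lower in cKO on 4 of 4 days in the light zone (-0.40, 95% interval -1.05 to 0.24) and on 3 of 4 in the dark zone (-0.51, -1.16 to 0.14). The light zone value rested on sort day 1: days 3 and 4 differed by -0.009 and -0.003, and without LZ control replicate 1 the difference was -0.061 and the control zone difference 0.32.

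**Figure D2:**
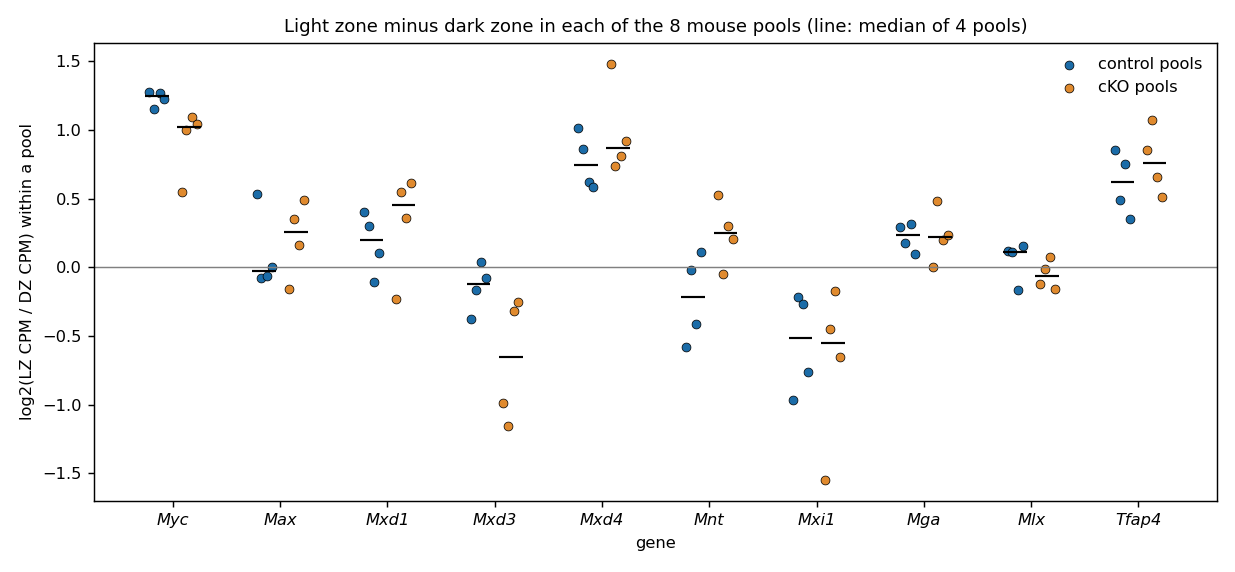
Log2 ratio of light zone CPM to dark zone CPM within each of the 8 mouse pools (vertical axis) for the 10 members (horizontal axis), with control and cKO pools in separate colours and a line at the median of 4 pools. Myc, Mxd4, Mga and Tfap4 lie above 0 and Mxi1 below 0 in all 8 pools, and the 4 control values of Myc (1.15 to 1.28) lie above its 4 cKO values (0.55 to 1.09).

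No member was called between genotypes in either zone: 0 of 10 in the light zone, where edgeR called 1.08% of all genes, and 0 of 10 in the dark zone, where it called 0.627%. None had an unadjusted p under 0.05, and DESeq2 called none either. No member's cKO and control libraries were free of overlap in either zone, against 8.65% of all genes in the light zone and 6.38% in the dark zone. The edgeR adjusted p ran from 0.455 to 0.97 in the light zone. With genotype calls this rare over all genes, 0 of 10 members is close to the background. The median log2 difference of the members was 0.11 in the light zone and 0.13 in the dark zone, beside 0.02 and 0.01 over all genes.

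**Figure D3:**
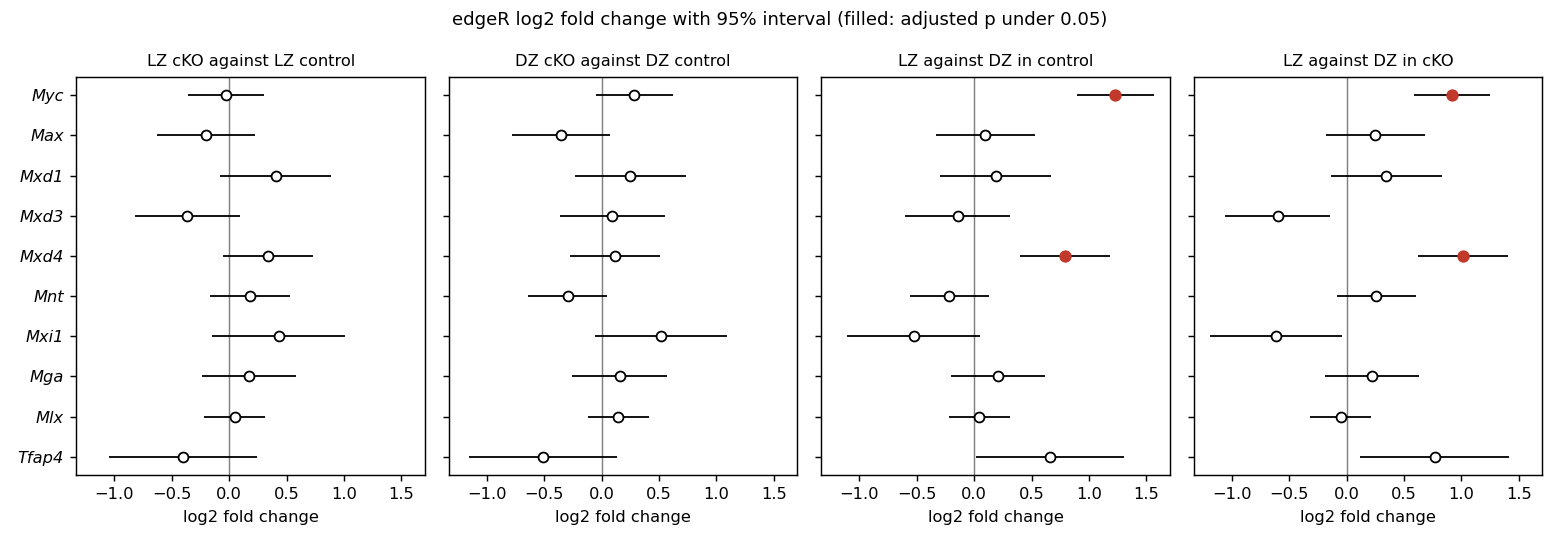
edgeR log2 fold change (horizontal axis) with its 95% interval for each member (vertical axis) in 4 panels, 1 per comparison; filled points passed an adjusted p of 0.05. Myc and Mxd4 are the filled points in both zone comparisons, at 1.23 and 0.79 in control and 0.92 and 1.01 in cKO, and no point is filled in the genotype comparisons.

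How members moved together was described by correlations of log2 CPM over the 16 libraries, which share zones, days and pools. Myc and Mxd4 had a Pearson r of 0.72, Myc and Tfap4 of 0.62, and Myc and Mxd3 of -0.57. The repressors did not move as a block, since Mxd3 and Mxd4 had an r of -0.67. Among 8880 genes compared, those most like Myc were Mtap (r = 0.963), a methionine salvage enzyme, Phtf2 (0.947), Samsn1 (0.944), a B cell adaptor, Cd82 (0.943), a tetraspanin, and Relb (0.941), an NF-kB subunit. Those most like Mxd3 were Spc25 (0.962), a kinetochore subunit, the predicted genes Gm11223 (0.94) and Gm10282 (0.934), Csrp1 (0.929) and Stmn1 (0.921), which regulates microtubules.

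Calls in the wider machinery around the network were no more frequent than over all genes. Of 34 further network genes, none was called between genotypes in either zone, near the 1.08% and 0.627% of all genes, and their median log2 difference was -0.08 in the light zone and -0.02 in the dark zone. Kat2a, the GCN5 acetyltransferase recruited by MYC, rose in the control light zone, from 45.6 ± 6.76 to 69.2 ± 15.7 CPM (SD, n = 4; log2 difference 0.60, edgeR adjusted p = 0.0309). It was the 1 gene of 10 cofactors called there. Aurka, the mitotic kinase that can stabilise MYC proteins, was lower in the light zone in control, at 99.0 ± 22.8 against 182 ± 28.4 CPM, and in cKO, at 89.0 ± 32.3 against 170 ± 35.4 CPM (log2 differences -0.88 and -0.93, edgeR adjusted p = 0.034 and 0.0223). Between zones in control 2.94% of the 34 genes were called higher and 2.94% lower, against 4.16% and 3.33% of all genes. In cKO 0.0% were called higher and 2.94% lower, against 4.91% and 4.18%. None of the 5 corepressor genes and none of the 8 PRC1.6 genes was called in any comparison, which lists this short can give at such shares.

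The other MYC and MLX family genes were mostly near the floor. Mycn had 0 counts in all 4 DZ control libraries and at most 25 in any library, Mycl 0 to 184 and Mlxipl (ChREBP) 0 to 84, so Myc was the MYC gene with substantial counts in these cells. Mlxip (MondoA), the main partner of MLX, had 1796 to 3730 counts and group means between 83.0 and 104.2 CPM. It was not called in any comparison, with log2 differences between genotypes of -0.21 and -0.23 in light and dark zone (edgeR adjusted p = 0.725 and 0.73).

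Next, 65 genes commonly listed as MYC-activated were followed, grouped by function. The lists were chosen with earlier results of these data known, so their counts are descriptions, and MYC activity was not measured. In control mice 8 (12.3%, against 4.16% of all genes) were called higher in the light zone and none lower, 51 of 65 had a positive log2 difference, and the median was 0.17 beside 0.00 over all genes. Ribosome biogenesis held 5 of these 8, with a median of 0.36 over 25 genes. Slc19a1, the reduced folate carrier, rose most, from 8.48 ± 1.55 to 23.7 ± 3.99 CPM (SD, n = 4; log2 difference 1.48 ± 0.192, edgeR adjusted p = 0.000186). Gnl3 (0.81), Mybbp1a (0.59), Pes1 (0.53) and Ppan (0.47), all nucleolar proteins of ribosome assembly, also rose, as did the mitochondrial chaperonin Hspe1 (0.56) and prohibitin, Phb (0.36).

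In cKO mice the target groups differed in direction between the zones. There 4 of 65 (6.15%, against 4.91% of all genes) were called higher and none lower, 33 had a positive and 32 a negative difference, and the median was 0.01 beside 0.00 over all genes. Ribosome biogenesis genes had a median of 0.13, with 19 of 25 positive and 3 called higher. The medians of the other groups were negative, at -0.12 for nucleotides and polyamines, -0.095 for translation, chaperones and mitochondria, -0.05 for glycolysis and uptake and -0.16 for the cell cycle. The 4 were Slc19a1 (0.69, edgeR adjusted p = 0.0321), Mybbp1a (0.52, 0.0473), Rrp9 (0.42, 0.0387) and Pes1 (0.40, 0.00403). The medians within pools were 0.15 to 0.19 in the 4 control pools and -0.05 to 0.03 in the 4 cKO pools. The interaction was negative for 61 of 65 targets with a median of -0.19 beside -0.01 over all genes, but none was called by edgeR.

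Between genotypes in the light zone the targets were mostly lower in cKO. Of 65, 61 had a negative log2 difference, with a median of -0.22 beside 0.02 over all genes, and on the 4 sort days the median was -0.26, -0.31, -0.09 and -0.24. Of the 65, 2 were called lower (3.08%, against 0.393% of all genes) and none higher. The 6 dark zone marker genes, mostly of mitosis, were also all negative in this comparison, with a median of -0.20 and none called, and their part in the target values was not tested. Odc1, the rate-limiting enzyme of polyamine synthesis, fell from 248 ± 19.9 to 160.4 ± 29.3 CPM (SD, n = 4; log2 difference -0.63 ± 0.128, edgeR adjusted p = 0.0283). Nop56, a core protein of the particles that methylate ribosomal RNA, fell from 216 ± 8.40 to 174 ± 9.76 CPM (-0.32 ± 0.07, adjusted p = 0.0424). All 13 genes of nucleotide and polyamine synthesis and all 13 of translation, chaperones and mitochondria had negative values, Hspe1 at -0.37 and Ranbp1 at -0.46 among them (adjusted p = 0.104 and 0.15). The cell cycle genes Cdk4 and E2f1 were at -0.31 and -0.34 (adjusted p = 0.182 and 0.202), and the glycolysis genes Pkm and Ldha at -0.24 and -0.22 (0.366 and 0.386).

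In the dark zone the differences between genotypes lay closer to 0. There 41 of 65 targets were negative with a median of -0.03 beside 0.01 over all genes, and the medians by sort day were -0.07, -0.08, 0.16 and -0.18. None was called by edgeR. Slc19a1 was the closest, at 0.66 ± 0.19 (adjusted p = 0.143), followed by Gnl3 at 0.44 (0.367), while Odc1 was at -0.26 (0.482). Of 6 genes that MYC represses, such as the cell cycle inhibitors Cdkn1a and Cdkn1b, none was called in any comparison. Macrophage gene sums, given above, overlapped between genotypes. All 10 of these genes had positive log2 differences in cKO in both zones and 0 were called. The sum of 6 dendritic cell genes, most of it Flt3, did not overlap between genotypes in either zone. It was 55.4 to 79.6 CPM in LZ control and 119.7 to 154.5 in LZ cKO. In the dark zone it was 62.6 to 74.8 CPM in control and 78.4 to 115.3 in cKO. In the light zone 4 of the 6 were positive, 2 negative and 1 called higher. In the dark zone all 6 were positive and 0 were called. The part of macrophage and dendritic cell RNA in the target values was not tested.

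**Figure D4:**
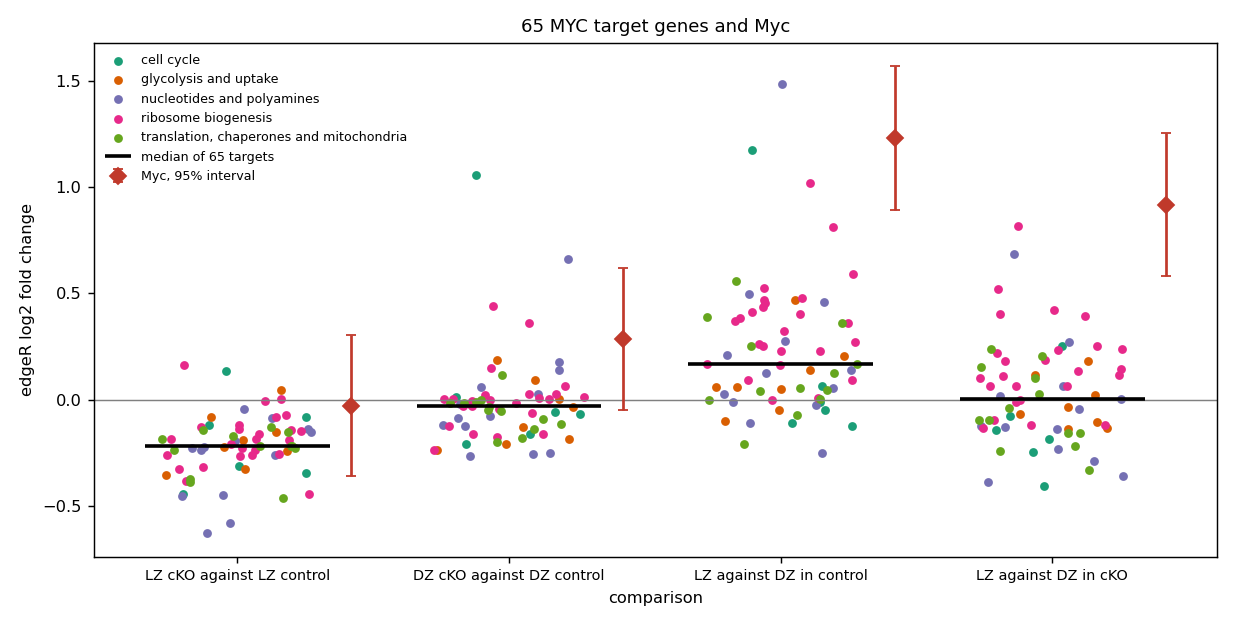
edgeR log2 fold change (vertical axis) of 65 MYC target genes, coloured by function, in 4 comparisons (horizontal axis), with a black line at their median and a red diamond for Myc with its 95% interval. The median lies at -0.22 between genotypes in the light zone, where Myc lies at -0.03, and at 0.17 and 0.01 between zones in control and cKO, where Myc lies at 1.23 and 0.92.

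PTBP1 crosslinks lay in 6 of the 10 member genes in LPS-cultured B cells. The authors' pooled list held 244659 significant crosslink positions with 432167 cDNAs, each cDNA being 1 crosslinked RNA molecule, and 72.6% of positions had 1 cDNA. The member genes held 185 positions and 258 cDNAs on the gene's strand. Of 10430 tested genes with a strand and span in RefSeq, 49.3% held at least 1 position, as did 5 of the 8 members with a strand in that table. For Myc and Tfap4, whose strand is not in it, both strands were counted. Longer and more highly expressed genes have more chance of a crosslink, and the counts and ranks given here were not scaled for either. Per 10 kb of span Max had 17.6 positions, Myc 15.9, Mga 12.8 and the other members at most 1.80.

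Myc carried a single compact cluster near the end of the gene. Its 8 positions, all on the plus strand, held 23 cDNAs and lay within 40 bases, chr15:61990080-61990119 (mm10, GRCm38), at 94.4% to 95.2% of the RefSeq span chr15:61985341-61990361. The strongest position, 61990080, had 7 cDNAs, and 61990099 had 6. In the replicates' own lists Myc had 3, 2, 0, 1 and 0 positions, and 2 of the 8 pooled positions stood in at least 2 of these lists.

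Mga and Max held most of the other positions. Mga, whose span chr2:119872503-119970129 is 97627 bases long, had 125 positions and 157 cDNAs in 20 clusters (positions no more than 50 bases apart), more positions than 97.3% of genes. None of them fell in the first 25% of the span and 87 fell between 30% and 50% of it. The listed promoter start of Mga lies 24725 bases inside this span, and the first position lies 28565 bases inside it. Whether the stretch before that start is transcribed in these cells was not tested. The densest pair of clusters, chr2:119905804-119905860 and chr2:119905921-119905990, held 21 and 22 cDNAs, and a cluster near the end, chr2:119967076-119967157, held 21. Max (chr12:76937269-76962323, minus strand) had 44 positions and 64 cDNAs in 9 clusters, more than 91.1% of genes. The largest were chr12:76953041-76953071 with 14 cDNAs and chr12:76937402-76937472, at the end of the span, with 13.

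The MXD genes had few crosslinks and the remaining members none. Mxi1 had 3 positions with 7 cDNAs, Mxd1 3 with 3 and Mxd4 2 with 4, both of the Mxd4 positions at 54.4% of its span. Mxd3, Mnt, Mlx and Tfap4 had none, which says only that no position was significant at this depth. The replicate lists were uneven, with 9, 36, 3, 16 and 8 member positions, and Mga alone gave 32 of the 36 in replicate 2 while Max gave all 8 in replicate 5. Of all 185 pooled positions, 6 stood in at least 2 replicate lists: 3 in Mga, 2 in Myc and 1 in Max. Each replicate list was called separately and held 6211 to 45505 positions, against 244659 in the pooled list. This limits how many pooled positions can recur, and the recurring share over all pooled positions was not counted. None of these genes' mRNA levels was called between genotypes in either zone, and the crosslinks come from other cells.

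**Figure D5:**
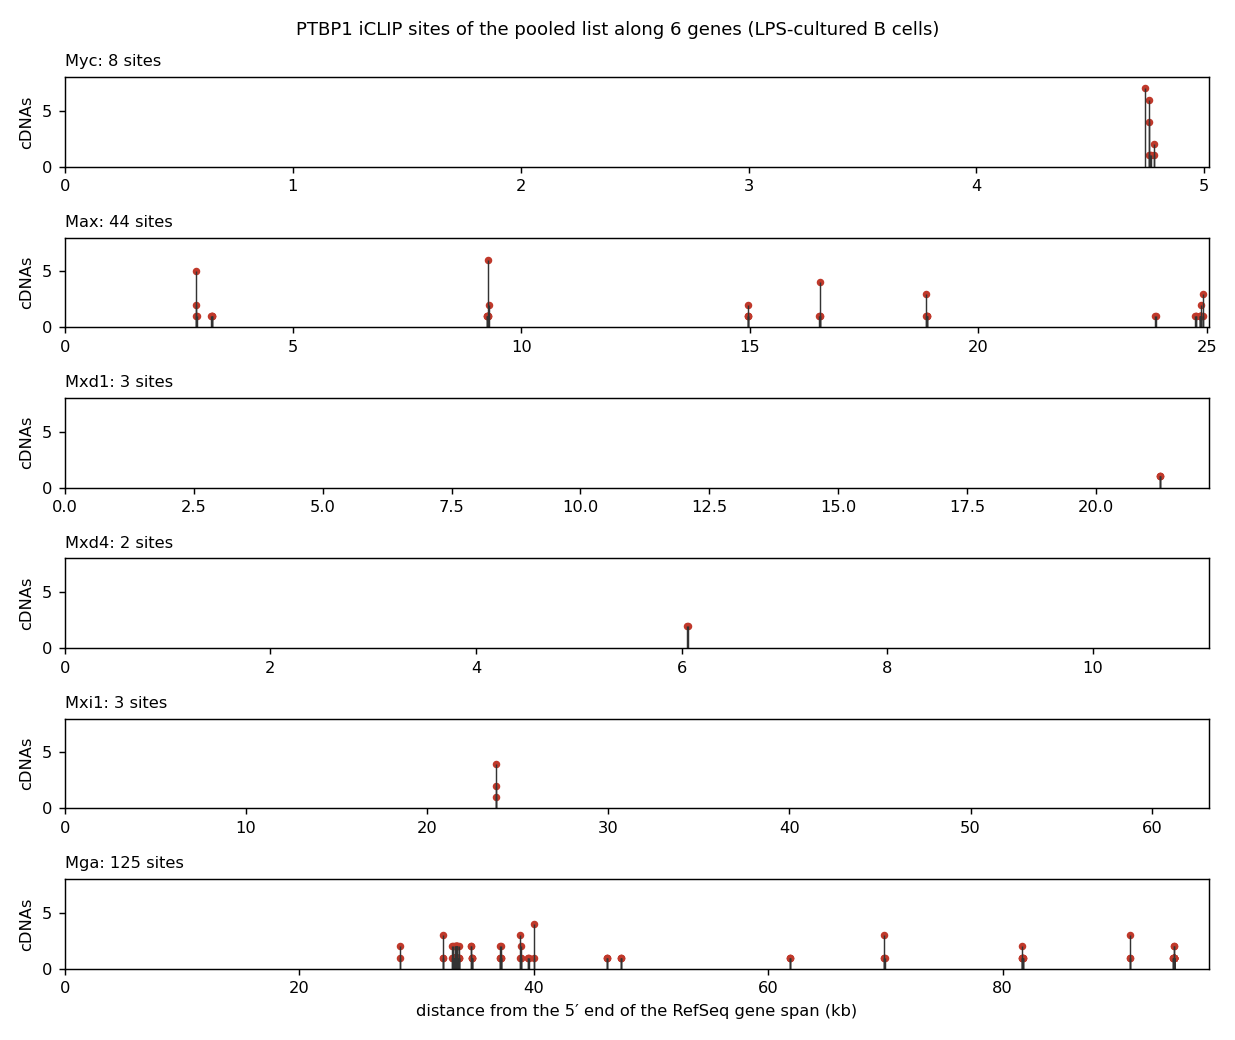
cDNAs at each PTBP1 crosslink position of the pooled list (vertical axis) against distance from the 5′ end of the gene span in kb (horizontal axis, its own scale for each gene) for the 6 members with any position. The 8 Myc positions stand together near the end of the gene with up to 7 cDNAs. The 125 Mga positions have at most 4 cDNAs each. None lies in the first 25% of the span and 87 lie between 30% and 50% of it. The listed promoter start of Mga lies 24725 bases inside that span.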

How the data were processed

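mRNA was measured in 16 libraries (SMART-Seq v4, poly(A) RNA) and PTBP1 crosslinks in 5 iCLIP replicates. The authors deposited raw counts per Ensembl gene; the submitters' processing notes name Trim Galore 0.4.2, HISAT2, HTSeq and Bowtie, without roles. Entries naming no gene (41.4% to 49.8% of a library's total) were left out of library sizes and tests. The deposited iCLIP lists give a signed cDNA count as score; per the file headers they are significant at a false discovery rate under 0.05 against mm10 with Ensembl annotation.

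Counts were tested with edgeR 4.0.16 (R 4.3.3, limma 3.58.1; TMM, filterByExpr with a minimum count of 10, robust quasi-likelihood fit of all 16 libraries, two-sided), with Benjamini-Hochberg adjustment over 15789 genes and calls at an adjusted p under 0.05. DESeq2 1.42.0, other scalings and filters, each sex alone, replicate blocks and leaving out libraries were alternatives. SE is the log2 difference over the square root of F, and 95% intervals use the fit's degrees of freedom. The script was tested on simulated data with less spread than these libraries and no pool or day effect, so that check does not measure power or error rates here. Spans and promoters came from RefSeq, GRCm38.p6.

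All 10 members are named. Of each other list, called genes are named (up to 4 of the largest per target list, at an average log2 CPM of at least 3), or up to 2 with the smallest adjusted p. The members and lists were chosen with earlier results of these data known.

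Replicate numbers pair libraries, since per the labels a number marks a sort day and a pool gave both zones: same-numbered libraries deviated together (r 0.094 to 0.39, the highest with their own number in 24 of 24 comparisons). No 2 libraries of a group agreed within sampling noise (chi-square per degree of freedom 22.2 to 167 over 24 pairs). Replicates were separate pools of mice.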

Additional observations from a re-analysis of the deposited data

Results flagged for a closer look

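Of the 40 member and group combinations of 4 libraries examined, 2 held a library far from the other 3, where chance gives about 1 in 20. Max was at 61.22 CPM in the LZ cKO library of sort day 1, against 121 to 128 CPM in the other 3, a gap of 0.90 of the group's range, past Dixon's 95% critical value. That library also had the fewest reads counted in genes (26823882) and the highest share of entries naming no gene (49.8%). Of all libraries it was the lowest for Max and Mxi1 (5.18 CPM) and the highest for Mnt (40.03 CPM) and Mxd4 (131.5 CPM). Mxd3 was at 73.9 CPM in the DZ cKO library of sort day 4, against 58.5 to 59.3 CPM in the others, a gap of 0.949 of the range.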

How the results depend on the processing

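Members called between genotypes and for the interaction stayed at 0 under every alternative run. Between zones in control the count of 2 became 1 in males alone and 0 in females alone, and 1 to 2 on leaving out libraries. In cKO the count of 2 became 0 in females alone, 2 to 3 on leaving out libraries, 3 in males alone, in DESeq2 and with a replicate block for the sort day and 4 with a replicate block by mouse pool (Myc, Mxd4, Mxd3 and Tfap4); the blocks changed no other member's call. Each sex alone leaves 2 libraries a group. In females alone Myc stood at 1.26 in control and 1.07 in cKO (edgeR adjusted p = 0.0837 and 0.108). Over all genes, the blocks raised the calls between genotypes from 171 to 868 in the light zone and from 99 to 517 in the dark zone, and between zones from 1183 to 2186 and from 1436 to 2810; DESeq2 called 587, 490, 1776 and 2214, and males alone gave 3, 2, 288 and 451 and females alone 9, 4, 257 and 364.

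Of 1150 single values, 40 changed sign, all of members not called, over 16 of 50 results. In females alone these were Max between zones in control (-0.023), Mxd1 there (-0.0030), Myc (0.031), Max (0.080), Mlx (-0.023) and Mnt (-0.032) between genotypes in the light zone, and the Mxi1 interaction (0.055). In males alone they were Mga between genotypes in the light (-0.025) and dark zone (-0.033) and the interactions of Max (-0.045) and Mxd1 (-0.11). Leaving out libraries gave, between genotypes in the light zone, -0.16 to 0.071 for Myc, -0.32 to 0.071 for Max, -0.020 to 0.11 for Mlx and -0.074 to 0.29 for Mnt, and in the dark zone -0.0021 to 0.16 for Mxd3. Between zones it gave -0.051 to 0.17 for Max, -0.024 to 0.34 for Mxd1 and -0.044 to 0.16 for Mlx in control, and -0.11 to 0.0077 for Mlx in cKO. For the interaction it gave -0.16 to 0.17 for Mga, -0.033 to 0.39 for Mxd1, -0.33 to 0.14 for Mxi1 and -0.11 to 0.45 for Tfap4. The cause was not tested.

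The 185 iCLIP positions became 0 at a minimum of 10 cDNAs and 6 where at least 2 of the much shorter replicate lists had to hold them. Intervals and counts cover the spread of 4 pools a group; Tfap4 is limited by its low counts.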
